A study of Equus caballus with 15 samples.

Results

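Skeletal muscle burns fatty acids in a chain of steps, and 37 genes of that chain were followed here from uptake at the cell surface to the nuclear regulators of the pathway. They comprise 7 genes of uptake and activation, 4 of the carnitine shuttle, 10 of the beta-oxidation cycle, 3 auxiliary enzymes, 3 of electron transfer, 2 of malonyl-CoA control, 3 of fuel choice and uncoupling, and 5 nuclear regulators. Members were the rows of the deposited count table whose symbol was on a list of 37, and all 37 were found among 30297 genes, each in 1 row. The rule matches symbols and uses no measured value, but the list was chosen with earlier results of these data known. All 37 also passed the filter on low counts, which kept 15343 genes.

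The samples came from the superficial digital flexor (SDF) muscle of a front limb of 5 euthanized horses, Equus caballus, with the tendon attached. The horses were 5 to 7 years old, 4 of them mares and 1 a gelding, and carry the numbers 14, 16, 17, 18 and 20. A 4 mm punch of each was frozen and cut parallel to the tendon into 3 samples of about 200 micrometres. The MTJ sample holds the myotendinous junction, where muscle fibres end on collagen, together with muscle and tendon around it, the muscle sample was cut from one side of it and the tendon sample from the other. All 15 libraries, 5 of each tissue, come from animals for which the labels name neither a treatment nor a genotype. No cells were sorted, so a lower level in a section may come from fewer cells of a type or from less RNA per cell, and these cannot be told apart in whole sections. Training state was not compared, because for horse 14 the labels of its samples disagree.

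Long-chain fatty acids enter muscle fibres with the help of membrane and cytosolic carriers and are activated to acyl-CoA by long-chain acyl-CoA synthetases. The carnitine shuttle carries the acyl groups into mitochondria, where the beta-oxidation cycle removes acetyl units and hands electrons to the respiratory chain. Malonyl-CoA blocks entry at the first shuttle enzyme, and the nuclear receptors of the PPAR family with their PGC-1 coactivators switch on many genes of the pathway. Tendon is mostly collagen with sparse cells, and muscle, above all its slow oxidative fibres, is among the tissues that use this pathway most.

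Library totals ran from 15304218 to 19295339 counts. Levels are in CPM, counts put on 1 scale by library total and by TMM factors (trimmed mean of M values), which ran from 0.671 to 1.88 and were 2.10 to 2.58 times as high in the tendon as in the muscle of the same horse. Summed levels of 10 muscle fibre markers were 88485 to 143604 CPM in MTJ sections, 137985 to 184917 CPM in muscle and 249 to 25786 CPM in tendon. Summed levels of 10 tenocyte markers were 520.4 to 3090.0 CPM in MTJ sections, 128 to 179.6 CPM in muscle and 11849.5 to 20108 CPM in tendon. Sections thus carried the markers of their labels, but tendon sections differed in their level of muscle transcripts. The median level of 213 deposited muscle reference genes in tendon, as a share of the same horse's muscle, was 13.7% in horse 14, 17.6% in horse 16, 11.7% in horse 17, 0.328% in horse 18 and 2.57% in horse 20. Muscle over tendon was therefore also fitted with the tendons of horses 14, 16 and 17 left out, a choice made after these values were seen, and those values are printed where the estimate moved most. In that fit the median log2 fold change of the 37 genes was 2.60, against 2.17 with all tendons.

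**Figure D1:**
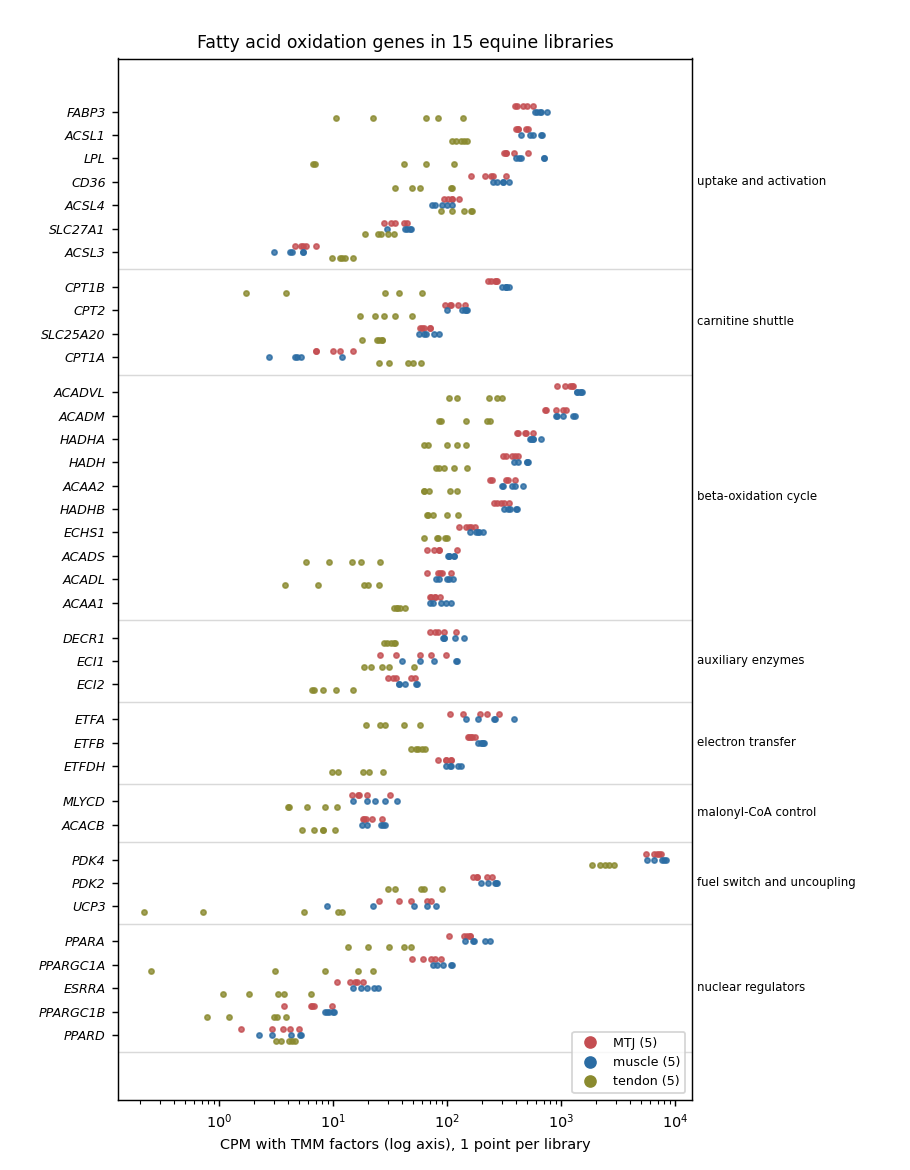
Levels of the 37 genes in 15 libraries, 1 point per library, in CPM with TMM factors on a log axis, grouped by role with MTJ, muscle and tendon sections in different colours. For 33 genes the 5 muscle points lie mostly to the right of the 5 tendon points, while CPT1A and ACSL3 show the opposite order and PDK4 lies far above the other genes in all 3 tissues.

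Muscle against tendon asks where the pathway is expressed, and most of it was higher in muscle. Of 37 genes, 33 were higher in muscle, 3 were lower and 1 was not called, by edgeR's quasi-likelihood test with Benjamini-Hochberg adjustment over 15343 genes and a call at an adjusted p under 0.05. Over all genes tested, 34.6% were higher and 38.8% lower in muscle than in tendon. The log2 fold change (given with its standard error throughout) had a median of 2.17 over the 37 genes, against -0.13 over all genes tested. It was above 1 for 32 genes, above 2 for 23 and above 3 for 6. The 5 muscle libraries lay above the 5 tendon libraries without overlap for 30 genes and below them for 2, while 25.1% and 26.6% of all genes did so. With the library totals alone as scaling, the median of all genes moved by -1.23 and 28 genes were higher and 5 lower. The share of all genes called under that scaling was not counted. Genes that lost their call or turned are named under their roles. Relative to the median of all genes, that of the 37 genes was 2.30 log2 units higher under both scalings. A change of scaling moves all genes by about the same amount, so this distance stays by construction and is no further evidence.

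Uptake and activation divided into 5 genes higher and 2 lower in muscle. LPL encodes lipoprotein lipase, which frees fatty acids from circulating triglycerides. Its levels in horses 14, 16, 17, 18 and 20, the order used throughout, were 703, 704, 424, 445 and 399.5 CPM in muscle and 65.5, 114, 41.6, 6.58 and 6.87 CPM in tendon. All muscle libraries were above all tendon libraries, and the tendons of horses 18 and 20 were lowest. The log2 fold change was 3.98 ± 0.55 (edgeR, adjusted p = 3.48e-05) and 6.04 ± 0.21 with the tendons of horses 14, 16 and 17 left out. FABP3, the fatty acid binding protein of heart and muscle cytosol, had 752, 651, 616, 589 and 669.5 CPM in muscle and 83.1, 137, 64.8, 10.5 and 22.2 CPM in tendon. Its log2 fold change was 3.65 ± 0.50 (edgeR, adjusted p = 3.12e-05) and 5.42 ± 0.24 with the tendons of horses 14, 16 and 17 left out. CD36, the fatty acid translocase of the cell surface, had 275, 349, 311, 254 and 307 CPM in muscle and 49.1, 107, 109, 34.9 and 58.0 CPM in tendon, with a log2 fold change of 2.17 ± 0.20 (edgeR, adjusted p = 1.16e-06). Capillary endothelium also uses CD36. Of 10 endothelial markers 0 were higher and 5 lower in muscle than in tendon, against 38.8% of all genes lower, and their summed levels were 341 to 520.2 CPM in muscle and 435 to 1010.3 CPM in tendon. Their part in the CD36 level was not tested. ACSL1, the main long-chain acyl-CoA synthetase of muscle, averaged 576 ± 95.1 CPM in muscle and 130.4 ± 16.1 CPM in tendon (SD, n = 5 each), a log2 fold change of 2.13 ± 0.13 (edgeR, adjusted p = 7.28e-08).

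SLC27A1, a fatty acid transport protein with synthetase activity, differed least among the 33 genes higher in muscle, with 44.0, 48.4, 42.7, 47.3 and 29.3 CPM in muscle and 34.1, 30.2, 24.7, 26.0 and 18.8 CPM in tendon. The groups overlapped, and the log2 fold change of 0.67 ± 0.09 (edgeR, adjusted p = 3.05e-05) turned to -0.57 (adjusted p = 5.32e-05) with library totals alone. ACSL3, a synthetase of the endoplasmic reticulum and lipid droplets, was lower in muscle in every horse, with 4.17, 4.37, 5.45, 3.02 and 5.37 CPM in muscle and 11.8, 12.7, 9.66, 11.5 and 14.9 CPM in tendon. The log2 fold change was -1.46 ± 0.17 (edgeR, adjusted p = 7.24e-06), with no overlap between the groups. ACSL4 (chromosome X, NCBI gene 100054459), a synthetase that prefers arachidonic acid, was the smallest of the 3 lower genes at a log2 fold change of -0.54 ± 0.12 (edgeR, adjusted p = 0.00165). It was lower in muscle in 4 of 5 horses, with 77.3, 73.4, 89.1, 109.6 and 99.3 CPM in muscle and 139, 110.3, 87.6, 163 and 162 CPM in tendon. All 9 macrophage markers tested were likewise lower in muscle than in tendon, with summed levels of 57.4 to 163 CPM in muscle and 244 to 446 CPM in tendon over 10 markers, of which CD14 was listed at 0 in every library. Their part in the levels of ACSL3 and ACSL4 was not tested.

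The carnitine shuttle held the widest contrast of the pathway, between its CPT1 isoforms. CPT1 is the step that malonyl-CoA inhibits, and its isoforms include that of muscle, CPT1B, and that of liver, CPT1A, which many other cells use. CPT1B (chromosome 28, NCBI gene 100055438) had 329, 325, 348, 325 and 299.8 CPM in muscle and 37.9, 59.9, 28.4, 1.72 and 3.83 CPM in tendon. Muscle levels stayed within a narrow range, whereas the tendons of horses 18 and 20 were far below the other 3. The log2 fold change was 4.10 ± 0.70 (edgeR, adjusted p = 0.000189), the highest of the 37 genes, and 6.84 ± 0.29 with the tendons of horses 14, 16 and 17 left out. CPT1A (chromosome 12, NCBI gene 100009716) had 4.64, 5.21, 12.0, 4.78 and 2.73 CPM in muscle and 45.5, 25.3, 30.5, 58.5 and 50.0 CPM in tendon. Every tendon library was above every muscle library, and the log2 fold change of -2.93 ± 0.32 (edgeR, adjusted p = 4.94e-06) was the lowest of the 37 genes. It was -3.61 ± 0.23 with the tendons of horses 14, 16 and 17 left out.

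Counted per kilobase of the deposited gene length, CPT1A made up 3.03, 2.26, 4.55, 4.14 and 2.42% of the CPT1A and CPT1B levels together in MTJ sections, 1.19, 1.36, 2.87, 1.25 and 0.774% in muscle, and 50.7, 26.6, 47.9, 96.7 and 91.8% in tendon. CPT1A was thus the minor isoform in every muscle and MTJ section, and nearly all CPT1 transcripts in the tendon sections of horses 18 and 20. CPT2, the inner-membrane enzyme that restores acyl-CoA, averaged 134 ± 20.9 CPM in muscle and 30.6 ± 12.3 CPM in tendon (SD, n = 5 each). Its log2 fold change was 2.19 ± 0.19 (edgeR, adjusted p = 7.2e-07). SLC25A20, the carnitine-acylcarnitine carrier of the inner mitochondrial membrane, differed less, with 69.0 ± 11.4 CPM in muscle and 24.1 ± 3.69 CPM in tendon and a log2 fold change of 1.51 ± 0.12 (edgeR, adjusted p = 3.1e-07).

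**Figure D2:**
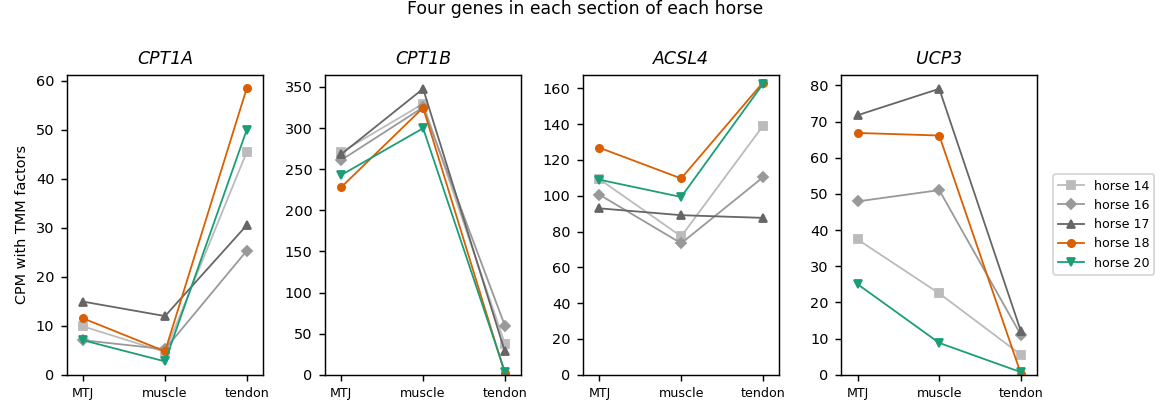
Levels of CPT1A, CPT1B, ACSL4 and UCP3 in CPM with TMM factors, in the MTJ, muscle and tendon section of each horse, with 1 line per horse. CPT1A is highest in tendon, CPT1B is at 1.72 and 3.83 CPM in the tendon of horses 18 and 20, ACSL4 is higher in the MTJ than in muscle in 5 of 5 horses, and UCP3 differs widely between horses.

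All 10 genes of the beta-oxidation cycle were higher in muscle than in tendon, with a median log2 fold change of 2.37. The acyl-CoA dehydrogenases, which take the first step on acyl chains of different length, formed the upper end. ACADVL, for very long chains, had 1485, 1475, 1388, 1364 and 1523 CPM in muscle and 274, 305, 231, 103 and 123 CPM in tendon, with a log2 fold change of 2.90 ± 0.26 (edgeR, adjusted p = 8.73e-07). ACADM, for medium chains, had 1325, 1032, 918, 903 and 1274 CPM in muscle and 225, 238, 145, 85.3 and 87.6 CPM in tendon, with a log2 fold change of 2.87 ± 0.26 (edgeR, adjusted p = 1.06e-06). Neither gene's groups overlapped, and the tendons of horses 18 and 20 were the lowest for both. ACADL, for long chains, and ACADS, for short chains, had log2 fold changes of 2.87 ± 0.32 and 3.04 ± 0.25. In the fit with the tendons of horses 14, 16 and 17 left out, ACADVL, ACADM, ACADL and ACADS were at 3.66 ± 0.19, 3.65 ± 0.20, 4.01 ± 0.18 and 3.82 ± 0.19. ACADL ran from 79.2 to 113 CPM in muscle and 3.76 to 25.4 CPM in tendon, and for ACADS the ranges were 102 to 115 CPM in muscle and 5.74 to 25.6 CPM in tendon.

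The trifunctional protein, which carries out the later steps on long chains, is built from HADHA and HADHB. HADHA averaged 573 ± 51.1 CPM in muscle and 99.0 ± 35.3 CPM in tendon (SD, n = 5 each), a log2 fold change of 2.58 ± 0.21. HADHB averaged 363 ± 40.1 CPM in muscle and 86.2 ± 24.4 CPM in tendon, with a log2 fold change of 2.11 ± 0.13. For shorter chains, HADH, the matrix dehydrogenase, had a log2 fold change of 2.17 ± 0.14 and ACAA2, the mitochondrial thiolase, one of 2.15 ± 0.13. HADH ran from 386 to 507 CPM in muscle and 80.2 to 150.0 CPM in tendon. ACAA2 ran from 300.2 to 462 CPM in muscle and 62.3 to 121 CPM in tendon. Both pairs of ranges were far apart. The lower end of the group was ACAA1, the thiolase of peroxisomes, at 1.22 ± 0.09, and ECHS1, the hydratase for short chains, at 1.13 ± 0.10. ECHS1 had 187, 207, 158, 179.8 and 189 CPM in muscle and 82.9, 96.1, 62.5, 99.7 and 81.1 CPM in tendon, without overlap. With library totals alone, ECHS1 was at -0.10 (edgeR, adjusted p = 0.345) and ACAA1 at -0.02 (edgeR, adjusted p = 0.805), so neither call held.

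Auxiliary enzymes let unsaturated fatty acids enter the cycle, and all 3 were higher in muscle. The isomerase ECI2 had a log2 fold change of 2.29 ± 0.16 and the reductase DECR1 one of 1.73 ± 0.13. ECI2 averaged 44.8 ± 8.02 CPM in muscle and 9.37 ± 3.52 CPM in tendon, and DECR1 107 ± 21.4 CPM in muscle and 31.7 ± 3.09 CPM in tendon (SD, n = 5 each). The isomerase ECI1 had 76.8, 122, 118, 40.0 and 57.2 CPM in muscle and 30.5, 51.2, 26.8, 18.6 and 21.4 CPM in tendon. Its groups overlapped because horse 18 was low in muscle, and its log2 fold change of 1.44 ± 0.18 (edgeR, adjusted p = 1.8e-05) was 0.20 (adjusted p = 0.302) with library totals alone. Electron transfer flavoprotein takes electrons from the dehydrogenases, and ETFDH passes them on to ubiquinone. Its subunit ETFA had 258, 261, 187, 147 and 382 CPM in muscle and 41.5, 57.4, 28.5, 19.5 and 25.5 CPM in tendon, with a log2 fold change of 2.84 ± 0.21 (edgeR, adjusted p = 2.24e-07). Its partner ETFB had 207, 210.0, 186, 201 and 199 CPM in muscle and 60.5, 63.3, 55.6, 52.7 and 48.3 CPM in tendon, with a log2 fold change of 1.84 ± 0.09 (edgeR, adjusted p = 2.91e-08, the lowest of the 37 genes). ETFB was nearly constant between horses in muscle, whereas ETFA was not. ETFDH had a log2 fold change of 2.79 ± 0.18 (edgeR, adjusted p = 7.69e-08).

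Malonyl-CoA is made at the mitochondrial surface by ACACB and removed by MLYCD, and both genes were higher in muscle. ACACB averaged 24.0 ± 4.86 CPM in muscle and 7.74 ± 1.87 CPM in tendon (SD, n = 5 each), a log2 fold change of 1.64 ± 0.14. MLYCD averaged 24.6 ± 8.18 CPM in muscle and 6.62 ± 2.91 CPM in tendon, with a log2 fold change of 1.92 ± 0.17. The enzymes with opposite action were thus both higher in the same tissue.

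PDK4 and PDK2 inhibit pyruvate dehydrogenase and so spare glucose when fatty acids are used. PDK4 (chromosome 4, NCBI gene 100052078) had by far the most counts of the 37 genes, with 7669.7, 6457, 7942, 8234 and 5709 CPM in muscle and 2916, 2604, 2173, 2433 and 1867 CPM in tendon. This single gene took 0.439 to 0.668% of all counts in MTJ libraries, 0.413 to 0.599% in muscle and 0.328 to 0.455% in tendon. The groups did not overlap and the log2 fold change was 1.59 ± 0.25 (edgeR, adjusted p = 0.000112), but with library totals alone it was 0.35 (adjusted p = 0.148). PDK2 averaged 245 ± 32.0 CPM in muscle and 55.3 ± 24.3 CPM in tendon (SD, n = 5 each), a log2 fold change of 2.23 ± 0.18 (edgeR, adjusted p = 4.14e-07). UCP3 (chromosome 7, NCBI gene 100052085), a carrier of the inner mitochondrial membrane induced when fatty acid supply is high, had 22.5, 51.1, 79.1, 66.1 and 8.80 CPM in muscle and 5.52, 11.0, 12.0, 0.219 and 0.711 CPM in tendon. The muscle of horse 20 was below the tendons of horses 16 and 17, so the groups overlapped, yet muscle was higher in 5 of 5 horses. The log2 fold change was 3.05 ± 0.63 (edgeR, adjusted p = 0.000854) and 6.12 ± 0.69 with the tendons of horses 14, 16 and 17 left out. The tendon values of horses 18 and 20 rest on 7 and 21 counts.

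Of the 5 nuclear regulators 4 were higher in muscle. PPARGC1A, the coactivator PGC-1 alpha, had 109.9, 107, 75.2, 81.4 and 91.4 CPM in muscle and 16.5, 22.1, 8.44, 0.251 and 3.05 CPM in tendon. The tendon level was lowest in horse 18, where it rests on 8 counts, and the log2 fold change of 3.59 ± 0.62 (edgeR, adjusted p = 0.000228) was 5.91 ± 0.50 with the tendons of horses 14, 16 and 17 left out. PPARGC1B, its paralog, averaged 9.32 ± 0.749 CPM in muscle and 2.40 ± 1.33 CPM in tendon (SD, n = 5 each), a log2 fold change of 2.11 ± 0.29. ESRRA, an orphan receptor that works with PGC-1, averaged 19.9 ± 3.97 CPM in muscle and 3.26 ± 2.06 CPM in tendon, with a log2 fold change of 2.75 ± 0.24. PPARA, a fatty acid receptor best known from liver, had 168, 172, 144, 213 and 238 CPM in muscle and 30.8, 48.1, 41.8, 13.4 and 20.0 CPM in tendon, with a log2 fold change of 2.65 ± 0.32 (edgeR, adjusted p = 9.87e-06). In the fit with the tendons of horses 14, 16 and 17 left out, PPARGC1B was at 3.02 ± 0.31, ESRRA at 3.62 ± 0.17 and PPARA at 3.69 ± 0.18. PPARD, the family member described most often in muscle, had 2.24, 5.21, 5.07, 4.27 and 2.88 CPM in muscle and 4.61, 4.07, 4.35, 3.17 and 3.45 CPM in tendon. It was the gene not called, at a log2 fold change of -0.02 ± 0.26 (edgeR, adjusted p = 0.946), and with library totals alone it was called lower at -1.27.

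CPT1B, LPL, FABP3 and PPARGC1A are also on the authors' deposited list of muscle reference genes. The study chose that list on these samples, so it is not independent evidence, and none of the 37 genes is on its tendon reference list.

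The remaining level in tendon differed greatly between members of the pathway. In horse 18, whose tendon had the lowest level of muscle reference genes, 6 genes were under 5% of the muscle level, 12 were at 5 to 15%, 9 at 15 to 30%, 7 at 30 to 100%, and 3 above. The lowest were PPARGC1A at 0.308%, UCP3 at 0.332%, CPT1B at 0.531%, LPL at 1.48%, FABP3 at 1.78% and ACADL at 4.75%. The first 2 were close to the 0.328% of the muscle reference genes, and each rests on fewer than 10 counts. Several mitochondrial enzymes kept a larger share, with ACADM at 9.45%, HADHA at 11.5%, HADHB at 18.9%, ETFB at 26.2% and ECHS1 at 55.5%. Above the muscle level were ACSL4 at 149%, ACSL3 at 381% and CPT1A at 1223%. These percentages depend on the TMM factors, which were 2.58 times as high in the tendon as in the muscle of horse 18. Without the factors, PPARD at 191%, ECHS1 at 143%, SLC27A1 at 142%, ECI1 at 120%, SLC25A20 at 104% and ACAA1 at 101% were also above the muscle level. ETFB was then at 67.5% and PPARGC1A at 0.793%. The median over the 37 genes was 24.7% in horse 14, 30.0% in horse 16, 23.8% in horse 17, 15.2% in horse 18 and 17.9% in horse 20.

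**Figure D3:**
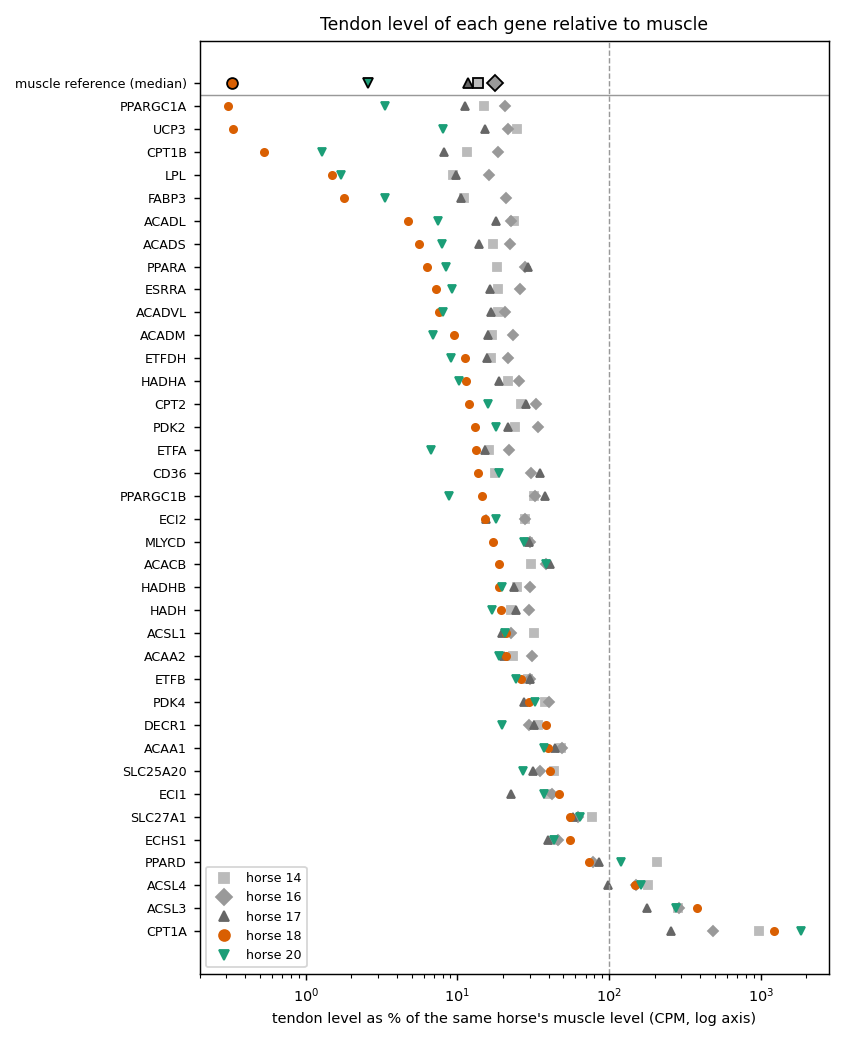
Tendon level of each gene as a percent of the muscle level of the same horse, in CPM with TMM factors. The axis is logarithmic, with 1 point per horse, sorted by horse 18, and the median of the muscle reference genes on top. Points of horses 18 and 20 reach from 0.308% for PPARGC1A in horse 18 and 1.28% for CPT1B in horse 20 to 1223 and 1834% for CPT1A, while those of horses 14, 16 and 17 lie at 8.17% or more for every gene.

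On the scale of CPM per kilobase, on which genes can be set against each other, PDK4 stood first of the 37 genes in all 3 tissues. Among 15343 genes it ranked 38 in MTJ sections, 45 in muscle and 47 in tendon. ACADVL came next in MTJ sections and muscle and was behind ECHS1 in tendon, with 439 ± 54.7 CPM per kilobase in MTJ sections, 557 ± 26.1 in muscle and 79.6 ± 34.7 in tendon (SD, n = 5 each), and ranks of 166, 155 and 474 in that order. FABP3 ranked 230, 187 and 890 and ACADM 214, 205 and 630 in the same order of tissues. FABP3 and ACADM were next to each other in muscle at 462 ± 43.8 and 429 ± 78.0 CPM per kilobase, which is within their spread. The nuclear regulators PPARD and PPARGC1B were last in MTJ sections and muscle, and PPARGC1B ranked 11407 in MTJ sections, 10255 in muscle and 13929 in tendon.

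MTJ sections against muscle ask whether the pathway changes where fibres end on tendon. Here 0 of 37 genes were called higher and 0 lower by edgeR's quasi-likelihood test on all 15 libraries, while 6.11% of all genes were higher and 0.502% lower. At an unadjusted p under 0.05 there were 9 genes, but the share of all genes at that level was not counted. DESeq2 called 0 higher and 5 lower (ACSL1, ECHS1, HADH, ECI1 and ETFB), against 7.53% and 1.86% of all genes. Of the 37 log2 fold changes 33 were negative and 4 positive, with a median of -0.29 against -0.00 over all genes tested. With library totals alone 23 were negative, and the median was -0.06 against 0.22 over all genes. The median of the 37 genes was 0.28 log2 units below that of all genes under both scalings, which again holds by construction. In 24 genes all 5 horses had the direction of the fold change, a count for which the share of all genes was not taken. The lowest adjusted p was that of ETFB, with 173, 161, 151, 156 and 166 CPM in MTJ sections and 207, 210.0, 186, 201 and 199 CPM in muscle and a log2 fold change of -0.31 ± 0.09 (edgeR, adjusted p = 0.0672).

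Fitted on the 10 MTJ and muscle libraries alone, 23 genes were lower in the MTJ and 2 higher, against 10.2% and 10.9% of 13564 genes. With the tendons of horses 14, 16 and 17 left out, 8 were lower and 1 higher, against 2.81% and 7.30% of all genes. The estimated changes were nearly the same in these fits, but their standard errors were not. ETFB was at -0.31 ± 0.09 in all 15 libraries and -0.31 ± 0.06 in 10. CPT1B was at -0.37 ± 0.59 in 15 and -0.36 ± 0.06 in 10, and LPL at -0.47 ± 0.47 and -0.50 ± 0.08. For ACSL3 the standard error was 0.17 in both fits. The absence of calls in 15 libraries thus came with wide standard errors for some genes. The muscle share of the MTJ is the median level of muscle reference genes there, in percent of the same horse's muscle (CPM). It was 80.6, 83.7, 75.7, 68.6 and 79.7% in the 5 horses, a mean of 77.7 ± 5.82% (SD, n = 5), which is -0.36 on the log2 scale. As a ratio of scaled levels it is not a fraction of the RNA in the section. In simulated counts such shares came out too high. The median of the 37 genes in the MTJ was 83.8, 86.2, 80.8, 76.5 and 85.0% of the same horse's muscle level, and both series were lowest in horse 18. Of 10 muscle fibre markers 0 were called between MTJ and muscle at a median log2 fold change of -0.33, and of 9 slow oxidative fibre markers 0 were called at a median of -0.48. The slow fibre marker CASQ2, picked after its values were seen, went the other way. It had 194 to 323 CPM in MTJ sections and 85.4 to 176 CPM in muscle. Against the mixture of muscle and tendon described below, 1 of the 9 slow fibre markers was above and 0 below. Slow fibre markers summed to 71367 to 88867 CPM in MTJ sections, 83749 to 139885 CPM in muscle and 171 to 20953 CPM in tendon. Their part in the values of the 37 genes was not tested.

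Between MTJ and muscle the ranges separated for 4 genes, all lower in the MTJ, while 1.02% of all genes were lower without overlap. They were ACADVL, CPT1B, ETFB and FABP3. CPT1B had 271, 261, 268, 228 and 243 CPM in MTJ sections and 329, 325, 348, 325 and 299.8 CPM in muscle, with a log2 fold change of -0.37 ± 0.59 (edgeR, adjusted p = 0.772). FABP3 had 501, 459.6, 394, 409 and 562 CPM in MTJ sections and 752, 651, 616, 589 and 669.5 CPM in muscle, with a log2 fold change of -0.49 ± 0.44 (edgeR, adjusted p = 0.583). ACADVL had 1259, 1202, 1070.0, 926 and 1251 CPM in MTJ sections and 1485, 1475, 1388, 1364 and 1523 CPM in muscle, with a log2 fold change of -0.36 ± 0.24 (edgeR, adjusted p = 0.44). None of the 3 passed the test on 15 libraries despite the separate ranges. In the fit on 10 libraries their adjusted p-values were 0.00179 for CPT1B, 0.000264 for FABP3 and 0.00378 for ACADVL (edgeR).

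The 4 genes with positive values were CPT1A, UCP3, ACSL3 and ACSL4. CPT1A had 9.86, 7.05, 14.9, 11.5 and 7.02 CPM in MTJ sections and 4.64, 5.21, 12.0, 4.78 and 2.73 CPM in muscle, higher in 5 of 5 horses, at a log2 fold change of 0.80 ± 0.32 (edgeR, adjusted p = 0.171) in 15 libraries and 0.86 (adjusted p = 0.00358) in the 10 libraries. UCP3 had 37.4, 47.9, 71.8, 66.9 and 25.1 CPM in MTJ sections and 22.5, 51.1, 79.1, 66.1 and 8.80 CPM in muscle. It was lower than muscle in horses 16 and 17, nearly level in horse 18 and higher in horses 14 and 20, at a log2 fold change of 0.40 ± 0.57 (edgeR, adjusted p = 0.744). ACSL4 had 109, 101, 92.9, 127 and 109 CPM in MTJ sections and 77.3, 73.4, 89.1, 109.6 and 99.3 CPM in muscle, at 0.27 ± 0.12 (edgeR, adjusted p = 0.243), and it was called at 0.50 (adjusted p = 0.0221) with library totals alone. ACSL3 was at 0.34 ± 0.17 (edgeR, adjusted p = 0.295).

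For the other members the MTJ level lay mostly at or below muscle within each horse. PDK4 stayed high, with 7578, 5525, 6941, 7194 and 6570.2 CPM in MTJ sections, or 98.8, 85.6, 87.4, 87.4 and 115% of the same horse's muscle, and a log2 fold change of -0.08 ± 0.25 (edgeR, adjusted p = 0.881). It was above muscle in horse 20 and below it in the others. LPL was at 54.5, 72.1, 77.9, 74.2 and 79.3% of muscle, lowest in horse 14, and at a log2 fold change of -0.47 ± 0.47 (edgeR, adjusted p = 0.629). PPARGC1A had 77.4, 87.9, 48.8, 61.5 and 72.1 CPM in MTJ sections, which was 70.4, 81.9, 65.0, 75.6 and 79.0% of muscle, at -0.43 ± 0.54 (edgeR, adjusted p = 0.712). The lowest values of the 37 genes were those of PPARGC1B at -0.56 ± 0.28 (edgeR, adjusted p = 0.276) and ECI1 at -0.54 ± 0.18 (edgeR, adjusted p = 0.105). ECI1 was at 46.2, 80.6, 60.7, 63.9 and 100.1% of muscle, level in horse 20 and less than in muscle in the other 4 horses.

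Because the MTJ section contains both neighbouring tissues, each was also set against a mixture of its own horse's muscle and tendon. The muscle part entered at the shares above and the tendon part at 13.7, 12.3, 24.5, 16.8 and 12.2%, the median level of 322 tendon reference genes. Of 37 genes, 1 was above the mixture and 0 were below it, by limma on the log2 ratios of the 5 horses after 0.5 CPM was added to each side, while 3.11% of all genes were above and 0.958% below. At an unadjusted p under 0.05 there were 6 genes, with ACSL4, UCP3, ACADL and PDK4 above and FABP3 and ECI1 below. The share of all genes at that level was not counted. The median log2 ratio was -0.01 over the 37 genes and 0.05 over all genes tested. CPT1A, at -0.13 ± 0.10 (limma, adjusted p = 0.579), and CPT1B, at -0.01 ± 0.05 (limma, adjusted p = 0.943), were not called.

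ACSL4 was the gene called above the mixture, with log2 ratios of 0.42, 0.42, 0.06, 0.30 and 0.14 in the 5 horses and a mean of 0.27 ± 0.07 (limma, adjusted p = 0.0456). All 5 ratios were positive, and that of horse 17 was close to 0. The call rests on single horses, as the adjusted p was 0.154 without horse 14, 0.170 without horse 16, 0.0987 without horse 18 and 0.103 without horse 20. It was 0.00695 with both shares solved together, a choice made after the data were seen that put 2 genes above the mixture against 9.72% of all genes, and 0.287 with the tendon share set to 1 minus the muscle share. Of 9 macrophage markers tested, 6 were also above the mixture, with a median log2 ratio of 0.71 and summed levels of 148 to 276 CPM in MTJ sections, 57.4 to 163 CPM in muscle and 244 to 446 CPM in tendon. Their part in the ACSL4 value was not tested.

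UCP3 came closest to a call among the rest, with log2 ratios over the mixture of 0.97, 0.12, 0.19, 0.55 and 1.75. The ratio was positive in 5 of 5 horses but ranged widely, with a mean of 0.72 ± 0.19 (limma, adjusted p = 0.055). The highest value belongs to horse 20, whose muscle had the lowest UCP3 level of the 5. UCP3 was called without horse 16 at 0.87 (limma, adjusted p = 0.0466) and without horse 17 at 0.85 (limma, adjusted p = 0.0378). With the shares solved together it was called at 0.74 (limma, adjusted p = 0.0252). It was not called in the other alternatives. Over 14 settings, the main one included, the mean ran from 0.38 to 1.15 and the adjusted p from 0.0252 to 0.450 (limma).

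**Figure D4:**
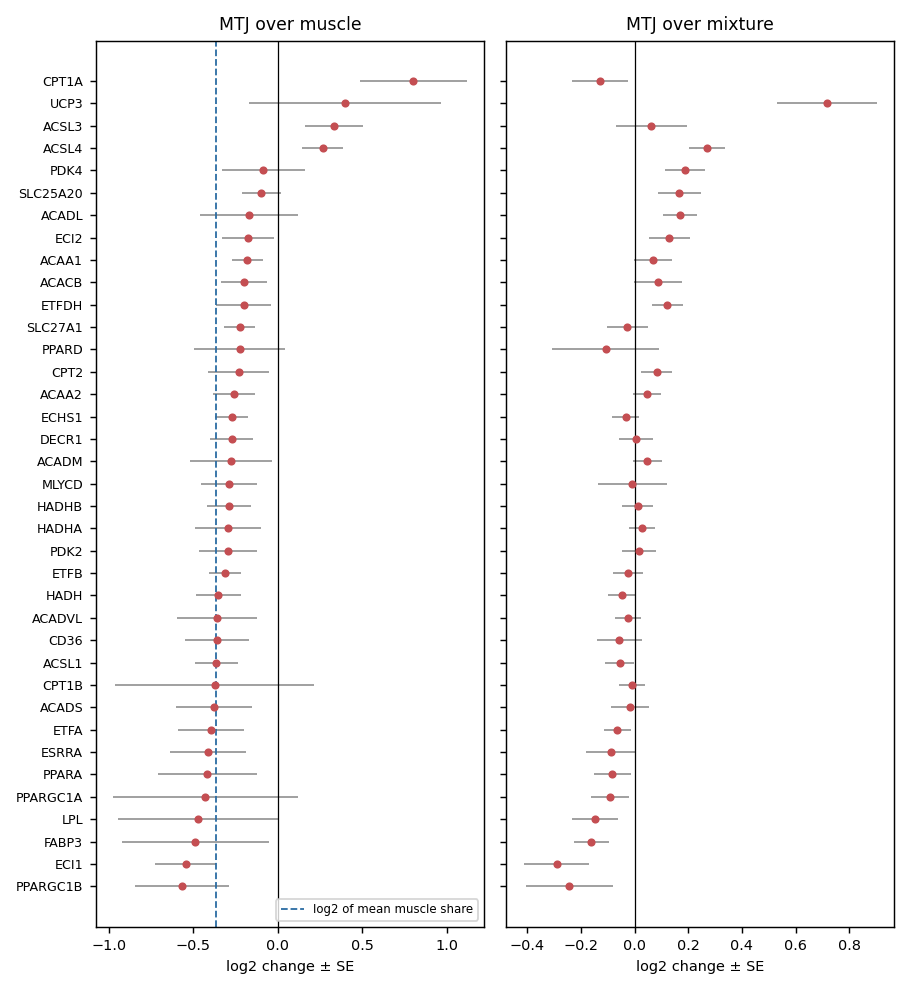
Log2 change with its standard error for the 37 genes, MTJ over muscle on the left and MTJ over the muscle and tendon mixture on the right, sorted by the left panel, with the mean muscle share of the MTJ as a dashed line at -0.36. Most genes lie left of 0 against muscle and near 0 against the mixture, where ACSL4 at 0.27 and UCP3 at 0.72 stand to the right.

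The authors' deposited table of MTJ changes against values predicted from muscle and tendon lists 33 of the 37 genes among its 7613, without CPT1A, ACSL3, PPARD and PPARGC1B. There, in the authors' deposited table, none of these 33 genes has an FDR, an adjusted p, under 0.05, against 30 of all genes listed. Its lowest FDR among them is 0.110, for ACSL4 at a mean log2 change of 0.27 in the authors' deposited table. UCP3 is listed there at 0.74 with an FDR of 0.184 in the same authors' deposited table. For the 17 listed members with a mean below 0, the FDR in the authors' deposited table is 0.724 or more. It is 0.980 for ECI1 at -0.29 and 0.994 for FABP3 at -0.16 in the authors' deposited table. Such values look like those of a test for increases only. They therefore cannot show whether a gene was below its predicted value.

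MTJ sections were also compared with tendon, a comparison that shares its tendon libraries with that of muscle. Of 37 genes 33 were higher in the MTJ and 2 lower, while 32.8% of all genes were higher and 34.5% lower. The lower genes were CPT1A at -2.13 ± 0.30 (edgeR, adjusted p = 5.92e-05) and ACSL3 at -1.12 ± 0.16 (edgeR, adjusted p = 7.41e-05). ACSL4 at -0.27 ± 0.12 (edgeR, adjusted p = 0.0641) and PPARD at -0.25 ± 0.26 (edgeR, adjusted p = 0.418) were not called. ACSL4 was called lower by DESeq2 (adjusted p = 0.0484) and without horse 17 (edgeR, adjusted p = 0.0197). It was also called lower with the tendons of horses 14, 16 and 17 left out (edgeR, adjusted p = 0.0179) and with library totals alone (edgeR, adjusted p = 1.9e-06). CPT1B, at 3.73 ± 0.69 (edgeR, adjusted p = 0.000439), and UCP3, at 3.45 ± 0.64 (edgeR, adjusted p = 0.000473), were among the highest, and with the tendons of horses 14, 16 and 17 left out they were at 6.49 ± 0.28 and 6.44 ± 0.68. With library totals alone 27 genes were higher and 5 lower, and the share of all genes called under that scaling was not counted.

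Horses differed more in some members than in others. In muscle, the ratio of the highest to the lowest horse was 1.12 for ACADVL and 1.13 for ETFB, against 8.98 for UCP3, 4.39 for CPT1A, 3.05 for ECI1 and 2.60 for ETFA. Its median over the 37 genes was 1.54 in MTJ sections, 1.49 in muscle and 2.66 in tendon. UCP3 in muscle was highest in horse 17 and lowest in horse 20, and these horses were also highest and lowest in the MTJ. ETFA had 196, 223, 139, 106 and 286 CPM in MTJ sections, again with horse 20 highest and horse 18 lowest, the same order at the ends as in muscle. Values of the 2 tissues come from the same animals, and each tissue of a horse is 1 library.

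Around the pathway, 91 of 96 symbols on 6 lists of related genes were in the table, and 88 were tested. The counts that follow stand against 34.6% of all genes higher and 38.8% lower in muscle than in tendon. The 14 peroxisomal genes tested followed the same direction, with 12 higher and 0 lower in muscle than in tendon at a median log2 fold change of 1.06. They were led by the carnitine acetyltransferase CRAT at 2.49 ± 0.21 (edgeR, adjusted p = 4.91e-07) and the oxidase ACOX2 at 2.10 ± 0.51 (edgeR, adjusted p = 0.00276). Of 4 genes of ketone body use 3 were higher, among them the dehydrogenase BDH1 at 4.01 ± 0.69 (edgeR, adjusted p = 0.000207) and OXCT1, which activates acetoacetate, at 2.18 ± 0.16 (edgeR, adjusted p = 1.64e-07). In the fit with the tendons of horses 14, 16 and 17 left out, ACOX2 was at 4.04 ± 0.37 and BDH1 at 7.17 ± 0.19.

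Lipid droplet genes divided, with 8 of 13 higher and 3 lower in muscle than in tendon, against 34.6% and 38.8% of all genes. The droplet coat proteins PLIN4 and PLIN5 were higher at 3.55 ± 0.53 and 3.40 ± 0.54 (edgeR, adjusted p = 6.75e-05 and 0.000113), and at 5.80 ± 0.44 and 6.35 ± 0.34 with the tendons of horses 14, 16 and 17 left out. G0S2 and HILPDA, both inhibitors of the lipase ATGL, were lower at -2.95 ± 0.40 and -1.12 ± 0.21 (edgeR, adjusted p = 2.75e-05 and 0.000445). G0S2 averaged 5.99 ± 0.994 CPM in muscle and 54.8 ± 44.0 CPM in tendon (SD, n = 5 each). Of 12 genes of fatty acid synthesis 3 were higher and 5 lower. Among the higher were MLXIPL, a transcription factor that responds to carbohydrate, at 1.84 ± 0.37 and the desaturase SCD at 0.70 ± 0.27 (edgeR, adjusted p = 0.000639 and 0.0364). The lower genes were led by the desaturases FADS1 at -2.77 ± 0.37 and FADS2 at -2.43 ± 0.39 (edgeR, adjusted p = 2.63e-05 and 0.000124). ACLY, which makes cytosolic acetyl-CoA, was lower at -1.79 ± 0.13 (edgeR, adjusted p = 2.19e-07). The median log2 fold change of that list was -0.13, the same as over all genes tested.

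Partners of the nuclear regulators and energy sensors were higher in 13 and lower in 5 of 22, against 34.6% and 38.8% of all genes. PERM1, a muscle regulator induced by PGC-1, was at 3.72 ± 0.66 (edgeR, adjusted p = 0.000251). The catalytic subunits of the energy sensor AMPK differed in direction, with PRKAA2 higher in muscle at 3.47 ± 0.60 and PRKAA1 lower at -0.60 ± 0.11 (edgeR, adjusted p = 0.000209 and 0.000389). PRKAA2 averaged 236 ± 20.9 CPM in muscle and 26.7 ± 20.9 CPM in tendon, and PRKAA1 27.5 ± 2.89 CPM in muscle and 41.9 ± 6.53 CPM in tendon (SD, n = 5 each). In the fit with the tendons of horses 14, 16 and 17 left out, PERM1 was at 5.83 ± 0.62 and PRKAA2 at 5.75 ± 0.34. The adipose receptor PPARG was lower at -0.90 ± 0.20 (edgeR, adjusted p = 0.00164), and it was not called with the tendons of horses 14, 16 and 17 left out (-0.66 ± 0.30, adjusted p = 0.0795). Of 7 adipocyte markers tested 2 were higher in muscle and 1 lower, at a median log2 fold change of -0.31. Over 9 markers they summed to 193 to 631 CPM in MTJ sections, 246 to 873 CPM in muscle and 38.6 to 125 CPM in tendon, with LEP listed at 0 in every library. GPD1, an enzyme that muscle fibres also express, gave 156 to 536 CPM of the sum in MTJ sections and 205 to 801 CPM in muscle, while ADIPOQ stayed at 8.89 CPM or less in every library. Of 23 other genes of fatty acid handling 11 were higher and 7 lower, and the lowest was the transport protein SLC27A6 at -4.38 ± 0.40 (edgeR, adjusted p = 9.69e-07).

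In the MTJ the related genes gave few calls. Against muscle, 3 of 88 were higher and 1 lower, where 6.11% and 0.502% of all genes were. ME1, which supplies NADPH for fatty acid synthesis, averaged 11.7 ± 2.79 CPM in MTJ sections, 5.60 ± 1.55 CPM in muscle and 6.24 ± 2.32 CPM in tendon (SD, n = 5 each). It was higher than in muscle and above the mixture, at 1.06 ± 0.17 over muscle (edgeR, adjusted p = 0.00254) and 1.08 ± 0.11 over the mixture (limma, adjusted p = 0.000231). PRKAA1 was higher at 0.46 ± 0.11 and the uncoupling protein UCP2 at 0.88 ± 0.22 (edgeR, adjusted p = 0.0305 and 0.0327), and the receptor ESRRG was lower at -0.52 ± 0.13 (edgeR, adjusted p = 0.0384). Against the mixture, 5 of 88 were above and 3 below, where 3.11% and 0.958% of all genes were. PRKAB2, a regulatory AMPK subunit, averaged 565 ± 35.9 CPM in MTJ sections, 482 ± 63.5 CPM in muscle and 102 ± 63.1 CPM in tendon, at 0.55 ± 0.06 (limma, adjusted p = 0.000264). The synthetase ACSL6 had a log2 ratio of 1.41 ± 0.26 (limma, adjusted p = 0.011) and the peroxisomal CROT one of 0.34 ± 0.08 (limma, adjusted p = 0.0265). PERM1 was below the mixture at -0.26 ± 0.06 (limma, adjusted p = 0.0359). Of the adipocyte markers, CIDEA, a lipid droplet protein, was called at 3.37 ± 0.75 over muscle (edgeR, adjusted p = 0.018) and 2.58 ± 0.28 over the mixture (limma, adjusted p = 0.000264), and it was singled out after its values were seen. The other 6 adipocyte markers tested were not called in either comparison, and the part of such cells in the values of the 37 genes was not tested.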

How the data were processed

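Each library was assigned to a tissue and a horse from its labels, giving 5 MTJ, 5 muscle and 5 tendon libraries. The members and the lists of related genes and markers were chosen with earlier results of these data known. Per the labels' protocols, mRNA was selected with oligo-dT or ribosomal RNA was depleted before sequencing on a DNBseq platform. The authors deposited whole-number read counts per gene without normalization, as the values show. The submitters' processing notes name EquCab3.0 and, as a tool, DESeq2 1.26.0. The aligner, the counter and the use of strand were not given in the sources used here. Reads of overlapping genes therefore cannot be told apart. A further 15 columns of transformed values in that table were not used. The authors also deposited a table of log2 changes of the MTJ against predicted values with an FDR, a p-value adjusted by the authors, and 2 lists of reference genes with the authors' log2 fold changes and adjusted p-values. Gene names, chromosomes and lengths are those of the count table, whose header does not explain the length.

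Raw counts were tested with edgeR 4.0.16 in R 4.3.3 (quasi-likelihood test, TMM, filterByExpr, tissue and horse as terms, 15 libraries together), with Benjamini-Hochberg adjustment over 15343 genes and calls under 0.05. Standard errors were taken from the fold change and its F value. MTJ sections were compared with each horse's own mixture using limma 3.58.1. Shares came from 213 muscle and 322 tendon reference genes, leaving out the 4 members on the muscle list and genes below the filter. The tests were tried on simulated counts of known fold, where shares estimated from reference genes came out too high, and shares of both tissues solved together were added for that reason. DESeq2 1.42.0, other scalings, filters and pseudocounts, leaving out a horse and leaving out tendon libraries were the alternatives. With tissue means subtracted, same-horse libraries correlated at 0.136 to 0.490 over 15 pairs, against -0.277 to 0.117 over 60 pairs of different horses, and the horse number marks 1 animal, so horse was kept as a block. Each tissue of a horse is 1 library. The main tests were made within horse, so level differences between animals do not enter their error. Their p-values cover how the difference between tissues varies from horse to horse, together with the spread between libraries. All 37 members and every marker list may be named, and related genes were named as the called genes with the highest and lowest changes in each list at a mean of at least 1 CPM.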

Additional observations from a re-analysis of the deposited data

Results flagged for a closer look

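Of 148 groups of 5 values, 3 had 1 horse far from the others by Dixon's criterion (gap over range above 0.71), and chance alone gives about 7. CPT1A in muscle was highest in horse 17 at 12.0 CPM, with the next horse at 5.21 CPM and the lowest at 2.73 CPM. SLC25A20 in tendon was lowest in horse 20 at 17.7 CPM, with the next at 24.3 CPM and the highest at 26.7 CPM. The log2 ratio of ACSL3 in the MTJ over the mixture was lowest in horse 20 at -0.21, with the next at 0.10 and the highest at 0.19.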

How the results depend on the processing

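Of 1813 values of the 37 genes under alternatives, 1744 kept their direction where called and their side of the threshold, 14 lost a call, 49 gained one and 6 reversed. Of 948 uncalled values 58 changed sign. All reversals came with library totals alone, for SLC27A1 (-0.57 muscle over tendon, -0.56 MTJ over tendon), ECHS1 (-0.10 and -0.15), ACAA1 (-0.023 muscle over tendon) and ECI1 (-0.11 MTJ over tendon), where the median of all genes moved by -1.23 and -1.01 in the 2 comparisons. Under that scaling 5 genes were lower in muscle than in tendon, 5 lower in the MTJ than in tendon, and 1 higher in the MTJ than in muscle. Shares of all genes were not counted for it. For MTJ over muscle, the 10 libraries alone gave 2 higher and 23 lower, DESeq2 gave 5 lower, and leaving out the tendon libraries of horses 14, 16 and 17 gave 1 higher and 8 lower. The count above the mixture was 0 with a pseudocount of 0.1, with the tendon share as 1 minus the muscle share, with no filter, without horses 14, 16 and 17 and with no replicate block, and 2 with both shares solved together. Leaving out each horse gave 0 to 2. Of all genes, 3.11% were above the mixture in the main fit and 9.72% with both shares solved together. That share was not counted for the other settings of the mixture, so their counts cannot be set against it. The cause of these changes was not tested. With no replicate block the pairwise counts were unchanged, 33 higher and 3 lower for muscle over tendon and 0 for MTJ over muscle, and leaving out the block changed no call other than that of ACSL4 over the mixture. Depth limits the tendon values of UCP3 and PPARGC1A in horse 18, which rest on 7 and 8 counts.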

Other observations

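Subunits of 1 complex can be set against each other per kilobase of deposited length, and the flavoprotein pair did not keep a fixed ratio between horses. The ratio of ETFA to ETFB in horses 14, 16, 17, 18 and 20 was 0.704, 0.864, 0.573, 0.423 and 1.07 in MTJ sections, 0.780, 0.775, 0.628, 0.457 and 1.20 in muscle, and 0.429, 0.566, 0.320, 0.231 and 0.329 in tendon. Horse 20 was highest and horse 18 lowest in both MTJ and muscle, and every tendon ratio was below the muscle ratio of its horse. HADHA to HADHB, the subunits of the trifunctional protein, had ratios of 1.15 to 1.48 in MTJ sections, 1.15 to 1.59 in muscle and 0.770 to 1.11 in tendon. PDK4 to PDK2 had ratios of 14.3 to 27.0 in MTJ sections, 15.3 to 22.9 in muscle and 18.2 to 51.4 in tendon, and the tendon of horse 18 was the highest of the 15. These ratios were chosen after the levels were seen and carry no test.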
